A study of Mus musculus with 24 samples.

Results

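The transcripts of the heme synthesis pathway were followed in bone marrow and liver of mice bled by phlebotomy. The 9 genes are Alas1, Alas2, Alad, Uros, Urod, Cpox, Ppox, Fech and Tmem14c, found by gene name on a mouse expression array. They are 9 of the 37008 gene names on the array and have 16 of its 56605 probes. All mice were male and carried the Erfe-/- genotype, that is, they lacked erythroferrone, a hormone released by erythroid precursors. Bone marrow or liver was taken at 0 h (the control time), 24 h or 48 h after bleeding by retro-orbital puncture, with 4 arrays in each of the 6 groups and 4 mice at each time. The 0 h mice are Erfe-/- as well, so nothing here compares this genotype with a wild type. The labels give neither strain nor age, and nothing says that the liver and marrow arrays of the same number came from the same mouse.

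Heme is an iron-bearing ring made in the mitochondria and cytosol of nearly all cells, with the largest demand in red cell precursors, which need it for hemoglobin, and in the liver, which needs it for cytochromes P450. Synthesis starts in the mitochondrion, where glycine and succinyl-CoA are joined to aminolevulinate by a synthase with a housekeeping form, Alas1, and an erythroid form, Alas2, encoded on the X chromosome. Alad, Uros and Urod act in the cytosol, Cpox and Ppox act at the mitochondrion on the oxidation of the porphyrinogen ring, and Fech inserts iron. Tmem14c is an inner membrane protein of mitochondria that serves porphyrinogen import in erythroid cells. GATA1 and KLF1 are the erythroid transcription factors whose binding motifs, the GATA box and the CACCC box, are known in promoters of heme synthesis genes.

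Promoter windows were shown for Alas2, the erythroid entry enzyme, and Cpox, the member with the largest change in marrow, because their changes at 24 h had opposite signs. Each window holds the 250 bases before the annotated start in RefSeq's GRCm38.p6 annotation, read 5′ to 3′ on the strand of the gene. It lies at chrX:150547167-150547416 on the plus strand for Alas2 and at chr16:58669958-58670207 on the plus strand for Cpox. Capitals mark GATAA (or AGATAA) and CCACCC on either strand.
Alas2: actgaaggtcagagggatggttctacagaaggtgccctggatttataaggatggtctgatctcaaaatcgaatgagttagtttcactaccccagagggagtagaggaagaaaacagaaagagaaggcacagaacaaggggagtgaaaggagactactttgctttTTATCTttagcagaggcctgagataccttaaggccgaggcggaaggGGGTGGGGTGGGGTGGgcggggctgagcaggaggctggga
Cpox: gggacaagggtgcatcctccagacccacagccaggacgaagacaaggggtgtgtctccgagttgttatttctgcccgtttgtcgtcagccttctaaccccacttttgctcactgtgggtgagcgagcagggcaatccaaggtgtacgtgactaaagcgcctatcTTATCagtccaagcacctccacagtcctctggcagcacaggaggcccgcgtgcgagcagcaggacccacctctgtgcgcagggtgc
The Alas2 window holds 1 AGATAA, read on the minus strand, and 3 overlapping or adjoining CCACCC matches, also on the minus strand. The Cpox window holds 1 GATAA on the minus strand and no CCACCC. In both windows the GATAA match begins 86 bases before the start. The promoter table used here gave 11 windows for 8 members, all but Fech. GATAA lay in 4 of these 11 windows (36.4%; Alas2, Cpox, Tmem14c and Uros) and in 22.6% of all 32851 windows of this length. AGATAA, which contains GATAA, lay in 1 of the 11 (9.09%; Alas2) and in 9.99% of all windows. CCACCC lay in 3 of the 11 (27.3%; Alas1, Alas2 and Tmem14c) and in 28.1% of all windows. These matches describe letters in a window and say nothing of binding.

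A level is the log2 processed intensity of a probe minus the 75th percentile of its array, so that 0 is the brightness of the 75th percentile. Levels of different probes are not comparable, and all statements below compare the same probe between arrays. That brightness was 354 to 467 intensity units in liver and 694 to 942 in marrow. A liver array had 28014 to 34428 probes well above background, and a marrow array 32009 to 35700. Erfe itself was not well above background on any of the 12 liver arrays with either of its 2 probes, and was so on 1 of 12 marrow arrays with 1 probe; whether these probes lie in the deleted part was not analysed here. On marrow 24 h replicate 2, the hepatocyte markers read a median of 13.5% of their liver mean (9 or 10 genes an array), against 0.00187% to 0.0321% on the other 11 marrow arrays. This library is labelled marrow and stayed in the tests, and the marrow results that rest on 24 h are also given without it. The erythroid marker list was above background for 13 of 13 genes on every marrow array, and the hepatocyte list for 10 of 10 on every liver array.

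In marrow, 2 of the 9 members passed the test at 48 h, both higher: Cpox by 0.68 log2 units (SE 0.14, 1.60-fold) and Alad by 0.56 (SE 0.12, 1.47-fold). Their adjusted p-values were 0.044 and 0.0487 (limma, Benjamini-Hochberg over 21381 genes, threshold 0.05). Over all genes, 1.06% passed at 48 h, 0.893% as higher and 0.168% as lower. In total 8 of 9 members had a positive change, with a median of 0.47 against 0.00 for all genes. The members, and the gene lists and markers below, were chosen with earlier results of these data known. Their comparisons with all genes are descriptions. The 4 arrays at 48 h lay wholly above the 4 arrays at 0 h for 5 members (Alad, Urod, Cpox, Ppox and Tmem14c), where 12.3% of all genes had groups that do not overlap. At 24 h none of the 9 members passed, where 1% of all genes did (0.533% higher and 0.468% lower). An unadjusted p under 0.05 was found at 24 h for 3 members and 12.7% of genes, at 48 h for 7 members and 15.8% of genes, and between 24 and 48 h for 5 members and 7.68% of genes. No member had groups that do not overlap at 24 h, against 7.97% of genes. Bulk RNA was measured, so fewer cells of a type and less RNA per cell cannot be told apart.

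**Figure D1:**
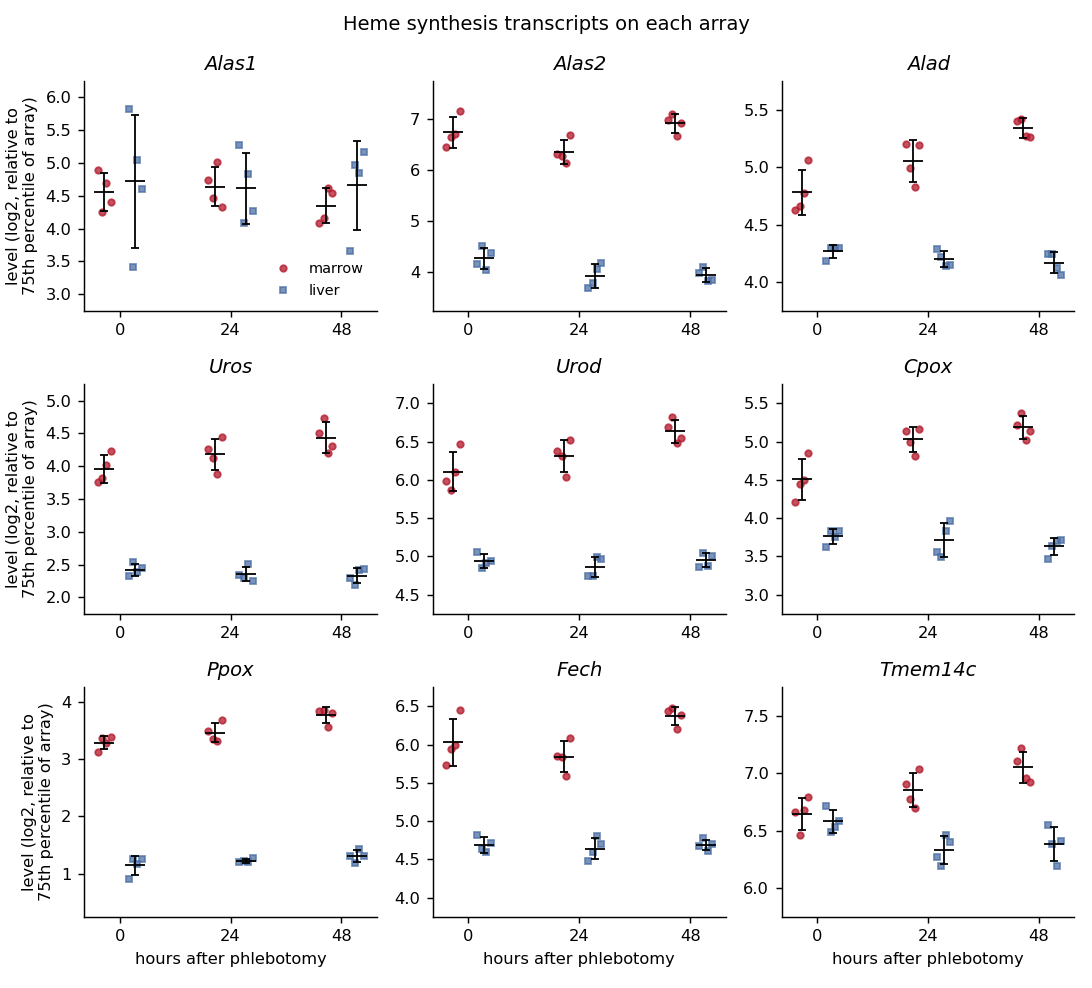
Level (log2, scaled by the array's 75th percentile) of each of the 9 transcripts at 0, 24 and 48 h in marrow (red circles) and liver (blue squares). Points are single arrays and bars give the mean ± SD of 4 arrays. The y axes differ between panels. Marrow lies above liver for 7 genes at every time and for Tmem14c at 24 and 48 h, and Alas1 has the widest spread in liver.

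Alas2, the erythroid synthase, was the member with the most negative change at 24 h. Its marrow levels were 6.46, 6.65, 6.70 and 7.17 at 0 h, 6.14, 6.29, 6.31 and 6.69 at 24 h, and 6.67, 6.93, 6.98 and 7.11 at 48 h. The 24 h mean was the lowest of the 3 times. The 24 h group overlapped with 0 h and, through its highest array (6.69 against 6.67), with 48 h. The change from 0 to 24 h was -0.39 (SE 0.16, adjusted p = 0.358 by limma, exact permutation p = 0.0857). From 24 to 48 h it was 0.56 (SE 0.16, adjusted p = 0.557, exact permutation p = 0.0571), and from 0 to 48 h 0.18 (SE 0.16, adjusted p = 0.633). On each of the 3 slides the 24 h mean was below the 0 h mean, by -0.75 to -0.24, and the 48 h mean above the 24 h mean, by 0.51 to 0.67.

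Alas1, the housekeeping synthase, had marrow levels of 4.25, 4.40, 4.70 and 4.89 at 0 h, 4.33, 4.47, 4.74 and 5.01 at 24 h, and 4.08, 4.16, 4.54 and 4.62 at 48 h. The 3 groups overlapped, and the changes were 0.08 at 24 h (SE 0.19) and -0.21 at 48 h (SE 0.19, adjusted p = 0.625 by limma). The other 2 Alas1 probes gave -0.09 and -0.06 at 48 h. Alas1 was the single member with a negative change at 48 h.

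Alad, which joins a pair of aminolevulinate molecules to porphobilinogen, read 4.63, 4.66, 4.78 and 5.06 at 0 h, 4.83, 4.99, 5.20 and 5.21 at 24 h, and 5.26, 5.27, 5.40 and 5.42 at 48 h. Every 48 h array lay above every array of the earlier times, and its 24 h group overlapped with 0 h. The 24 h change was 0.27 (SE 0.12, adjusted p = 0.363 by limma). A second Alad probe lies on the opposite strand to the gene and was never above background.

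Uros closes the porphyrinogen ring and Urod removes carboxyl groups from it. Uros read 3.75, 3.82, 4.01 and 4.23 at 0 h, 3.89, 4.13, 4.26 and 4.44 at 24 h, and 4.20, 4.30, 4.50 and 4.73 at 48 h. Only its highest 0 h array overlapped with 48 h, and the 48 h change was 0.48 (SE 0.15, adjusted p = 0.162 by limma). The other 2 Uros probes gave 0.39 and 0.72 at 48 h. Urod read 5.87, 5.98, 6.11 and 6.46 at 0 h, 6.03, 6.31, 6.38 and 6.52 at 24 h, and 6.48, 6.54, 6.68 and 6.82 at 48 h. The 0 h and 48 h groups of Urod did not overlap, by a margin of 6.46 against 6.48, with a change of 0.53 (SE 0.14, adjusted p = 0.11 by limma).

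Cpox converts coproporphyrinogen to protoporphyrinogen, and was the member with the largest change at 24 h. It read 4.21, 4.45, 4.50 and 4.86 at 0 h, 4.81, 5.0, 5.14 and 5.16 at 24 h, and 5.02, 5.14, 5.21 and 5.38 at 48 h. The 24 h group overlapped with 0 h through a single array of each. The change was 0.52 at 24 h (SE 0.14, adjusted p = 0.116 by limma) and 0.68 at 48 h. A second, dimmer Cpox probe moved the same way in marrow, by 0.40 and 0.59. Ppox, the next oxidase, read 3.12, 3.28, 3.37 and 3.37 at 0 h, 3.32, 3.36, 3.48 and 3.68 at 24 h, and 3.56, 3.80, 3.84 and 3.85 at 48 h. The 48 h arrays all lay above 0 h, with a change of 0.47 (SE 0.10, adjusted p = 0.0592 by limma) and of 0.63 with the other Ppox probe.

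Fech, the iron-inserting last enzyme, had a course like that of Alas2. It read 5.73, 5.94, 5.99 and 6.45 at 0 h, 5.59, 5.84, 5.85 and 6.08 at 24 h, and 6.20, 6.39, 6.44 and 6.47 at 48 h. All 48 h arrays lay above all 24 h arrays, a difference of 0.54 (SE 0.15, adjusted p = 0.557 by limma, exact permutation p = 0.0286, the smallest that 4 against 4 arrays allow). Alad and Fech were the 2 members whose 24 h and 48 h groups did not overlap, against 3.68% of all genes, and no member passed between these times (0.00468% of genes did). The changes from 0 h were -0.19 at 24 h and 0.35 at 48 h (SE 0.15 each). Tmem14c read 6.46, 6.66, 6.68 and 6.79 at 0 h, 6.70, 6.77, 6.90 and 7.04 at 24 h, and 6.92, 6.96, 7.11 and 7.22 at 48 h. The 48 h group lay above 0 h, with a change of 0.40 (SE 0.11, adjusted p = 0.1 by limma).

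**Figure D2:**
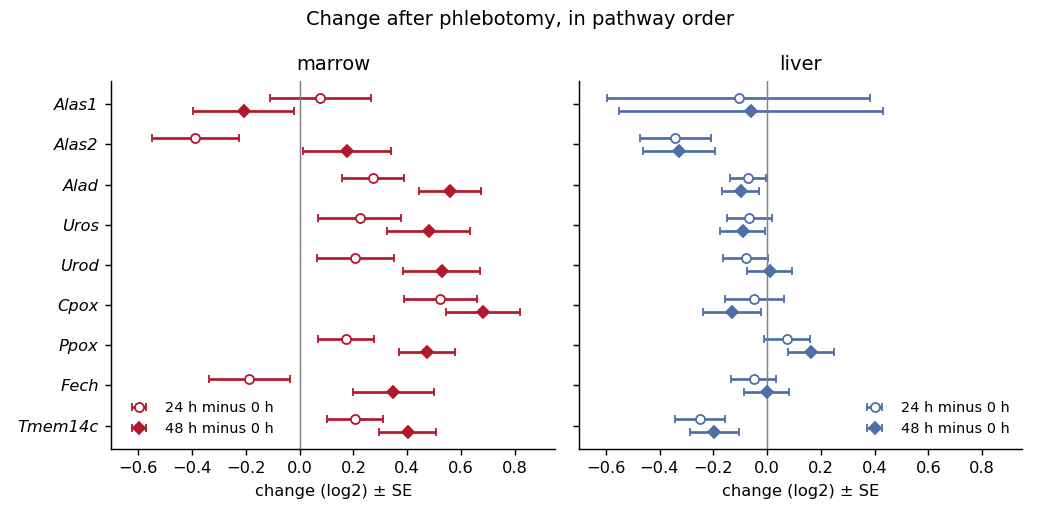
Change (log2) from 0 h at 24 h (open circles) and 48 h (filled diamonds) for the 9 members in pathway order, marrow on the left and liver on the right; bars are ± SE from limma. In marrow the enzymes from Alad to Ppox lie to the right of 0 at both times while Alas2 and Fech lie to the left at 24 h; both times share the 0 h arrays.

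Without marrow 24 h replicate 2, the library with hepatocyte transcripts, no member passed at 24 h or between 24 and 48 h, as with it. Of all 21496 genes then tested, 0.577% passed at 24 h and 0.00465% between 24 and 48 h. The 24 h change of Alas1 was then 0.13 in place of 0.08 (adjusted p = 0.877 by limma), a move of more than 1.5 times of a value within its SE. That of Alas2 was -0.36 (adjusted p = 0.482), of Cpox 0.53 (adjusted p = 0.184), of Alad 0.29 (adjusted p = 0.402) and of Fech -0.19 (adjusted p = 0.744). The values were 0.23 for Tmem14c, 0.24 for Uros, and 0.21 for each of Urod and Ppox. From 24 to 48 h the differences were 0.54 for both Alas2 and Fech. At 48 h Cpox (adjusted p = 0.0472 by limma) and Alad (adjusted p = 0.0499) still passed, where 1.51% of all genes did.

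The 2 calls at 48 h lay close to the threshold. The count of members passing was 0 in 17 of 26 alternative settings, the slide as a block among them (Cpox 0.67, adjusted p = 0.125; Alad 0.56, adjusted p = 0.134), and 5 with all 24 arrays in 1 fit (Alad, Urod, Cpox, Ppox and Tmem14c). The signs of Alad, Uros, Urod, Cpox, Ppox, Fech and Tmem14c at 48 h were positive in all 26, and those of Alad, Uros, Urod, Cpox, Ppox and Tmem14c on each of the 3 slides (Cpox 0.28 to 0.88, Alad 0.20 to 0.76). Leaving out marrow 0 h replicate 1, 2 or 3, 24 h replicate 1 or 4, or 48 h replicate 1, 2 or 4 gave 0 calls, leaving out 48 h replicate 3 gave 1 (Ppox), and leaving out 0 h replicate 4 gave 3 (Alad, Urod and Cpox).

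The ends of the pathway were also set against its middle within arrays, where the scaling of the array cancels. For each array the mean of Alad, Uros, Urod, Cpox and Ppox was subtracted from Alas2, and the mean of the 0 h arrays was set to 0. Relative Alas2 was then -0.10, -0.05, 0.00 and 0.15 at 0 h, -0.80, -0.69, -0.65 and -0.53 at 24 h, and -0.46, -0.37, -0.35 and -0.30 at 48 h. The 3 groups did not overlap, with 24 h lowest and 48 h in between. Relative Fech was -0.11 to 0.15 at 0 h, -0.55 to -0.42 at 24 h and -0.27 to -0.12 at 48 h, with the same order and also without overlap between 24 and 48 h. Marrow 24 h replicate 2 read -0.69 for Alas2 and -0.42 for Fech, and without it the groups are still apart. Relative Tmem14c stayed between -0.21 and 0.20 over the 12 arrays, and relative Alas1 between -1.11 and 0.52 with a 48 h mean of -0.75 ± 0.40 (SD, n = 4). These differences were chosen after the values were seen and are given as a description, without a test. The share of all genes set apart by the same subtraction was not computed. By themselves the differences show unequal change, not which side changed. At 48 h the subtracted enzymes had changes from 0 h of 0.47 (Ppox) to 0.68 (Cpox). Those of Alas2 and Fech were 0.18 and 0.35, so neither mean lay below 0 h at that time.

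**Figure D3:**
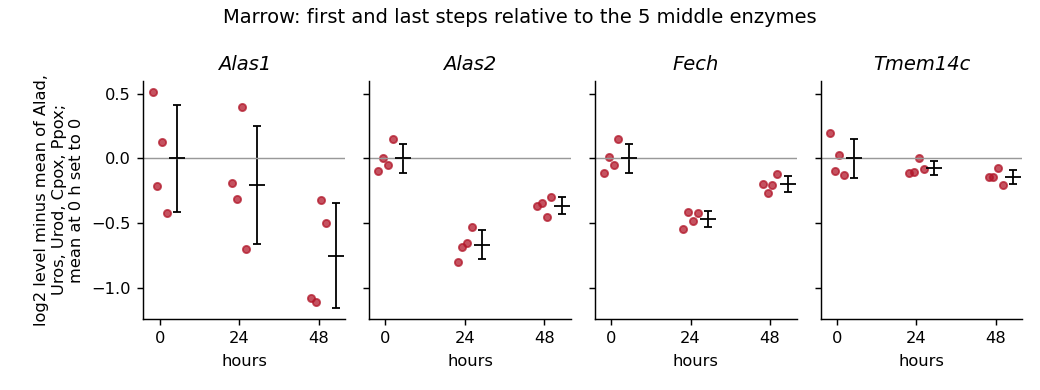
Marrow level of Alas1, Alas2, Fech and Tmem14c minus the mean of the 5 middle enzymes on the same array (log2), with the 0 h mean of each gene set to 0, at 0, 24 and 48 h. Points are arrays and bars the mean ± SD of 4; Alas2 and Fech are lowest at 24 h and lie between at 48 h, while Tmem14c stays near 0.

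Across the 12 marrow arrays the middle enzymes varied together: Alad and Urod correlated at r = 0.97, Uros and Urod at 0.97 and Alad and Cpox at 0.95. Alas2 correlated with Cpox at only 0.32 over all arrays but at 0.93 after the group means were removed, and with Fech at 0.95 and 0.97. Alas1 had negative correlations with each of the other 8 members in marrow, from -0.73 with Fech to -0.46 with Tmem14c. These correlations are descriptions over 12 arrays that share slides and scaling.

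In liver no member passed the test at 24 h, at 48 h or between these times, and no gene of the 19639 tested did so (0% called; limma, smallest adjusted p over all genes 0.3, 0.265 and 0.212). At an unadjusted p under 0.05, 2196 genes stood at 24 h (11.2%), 1287 at 48 h (6.55%) and 1507 between the times (7.67%), and 2, 1 and 0 of the members. The members at 24 h were Alas2 and Tmem14c and the member at 48 h was Alas2, all with negative changes. Alas2 read 4.04, 4.17, 4.37 and 4.51 at 0 h, 3.69, 3.79, 4.06 and 4.19 at 24 h, and 3.83, 3.84, 3.99 and 4.11 at 48 h. The later groups were lower but overlapped with 0 h, with changes of -0.34 and -0.33 (SE 0.13 each, adjusted p = 0.399 and 0.716 by limma). Its sign was negative in all 26 alternatives at both times and on each of the 3 slides. Tmem14c read 6.49, 6.53, 6.59 and 6.71 at 0 h, 6.19, 6.27, 6.40 and 6.46 at 24 h and 6.19, 6.38, 6.41 and 6.55 at 48 h. It was the 1 member whose 24 h group did not overlap with 0 h (5.73% of genes did not), and no member had such groups at 48 h (4.26% of genes) or from 24 to 48 h (3.71%). Its change at 24 h was -0.25 (SE 0.09, adjusted p = 0.383 by limma, exact permutation p = 0.0286).

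Alad, Uros, Urod, Cpox, Ppox and Fech lay in narrow ranges in liver, with changes from -0.13 for Cpox at 48 h to 0.16 for Ppox at 48 h. Their standard errors were between 0.07 and 0.11, and their adjusted p-values were 0.715 or higher (limma). The second Cpox probe moved the other way in liver, by 0.45 at 24 h (adjusted p = 0.388) and 0.32 at 48 h (adjusted p = 0.842), so that the direction of Cpox in liver differs between its probes. The mean of both probes gave 0.20 and 0.09.

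Alas1 in liver was set apart by its spread. It read 3.41, 4.60, 5.04 and 5.83 at 0 h, 4.09, 4.27, 4.83 and 5.28 at 24 h, and 3.66, 4.85, 4.97 and 5.17 at 48 h. The groups overlapped almost wholly, and the changes of -0.10 and -0.06 had an SE of 0.49 each. The SD within groups was 0.77, higher than that of 98.2% of the 19488 liver genes compared, whose median was 0.18; in marrow it was 0.29. All 3 Alas1 probes were above background on all 12 livers and the other 2 gave 0.04 and 0.31 at 24 h, opposite in sign to the first. The direction of the Alas1 change in liver changed in 5 of 26 alternatives at 24 h and in 4 at 48 h.

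In the same livers Nr1d1, the heme-binding circadian repressor also called Rev-erb alpha, tended to be high where Alas1 was low. The lowest Alas1 values, 3.41, 3.66, 4.09 and 4.27, came with Nr1d1 levels of -0.08, 0.68, -0.85 and -1.16, and the highest, 5.83, 5.28, 5.17 and 5.04, with -2.68, -3.09, -1.55 and -1.79. The livers between, with Alas1 of 4.60, 4.83, 4.85 and 4.97, read -2.21, -0.55, -0.99 and -0.65 and did not keep this order. Pearson's r over the 12 livers was -0.77 and Spearman's rho was -0.75; without the 2 arrays farthest from the median of Nr1d1, r was -0.70. Nr1d1 was looked at because it stands in the regulator list, and the relation is given as a description. Among the members, listed genes and erythroid markers it had the most negative r with Alas1. Of 19487 liver genes ordered from the most positive r, Nr1d1 stood at rank 19456, so genes outside these lists had a more negative r. The time of day of sampling is not given in the labels, and its part was not tested. Ppargc1a, a coactivator that can raise Alas1, had a Pearson's r of 0.47 with Alas1 and a Spearman's rho of 0.17.

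**Figure D4:**
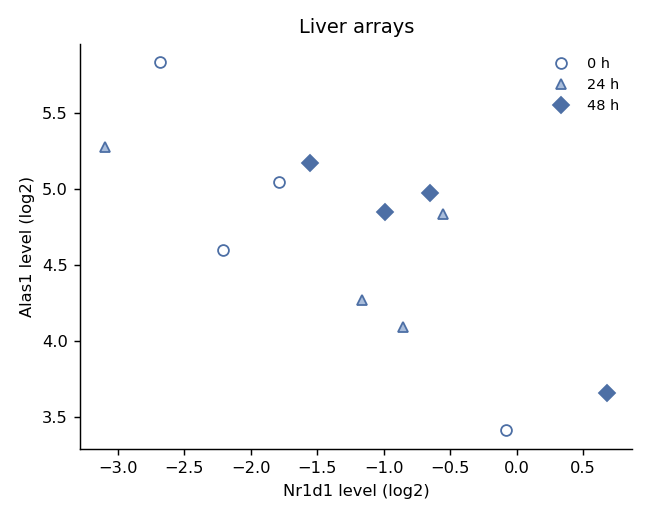
Level of Alas1 against that of Nr1d1 (both log2, scaled by the array's 75th percentile) on the 12 liver arrays, marked by time after phlebotomy. Alas1 spans 3.41 to 5.83 and tends to be lower where Nr1d1 is higher. Arrays of the 3 times are mixed.

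The balance of the synthases was followed as Alas2 minus Alas1 on each array; since its zero point has no meaning, values are given relative to the mean of the liver arrays at 0 h. In marrow the balance was 2.02, 2.46, 2.85 and 3.21 at 0 h, 1.58, 2.02, 2.27 and 2.80 at 24 h, and 2.49, 2.83, 3.35 and 3.40 at 48 h. The 3 groups overlapped, with 24 h lowest and 48 h highest. The changes were -0.46 at 24 h (exact permutation p = 0.229) and 0.39 at 48 h (exact permutation p = 0.257). From 24 to 48 h the balance differed by 0.85 toward Alas2 (exact two-sided permutation p = 0.0571, 0.343 adjusted over the 6 comparisons within tissues). Without marrow 24 h replicate 2 the change was -0.50 from 0 to 24 h (exact permutation p = 0.229) and 0.88 from 24 to 48 h (exact permutation p = 0.114). In liver it was -1.21, -0.56, 0.22 and 1.55 at 0 h, -1.14, -0.32, 0.15 and 0.37 at 24 h, and -0.88, -0.57, -0.41 and 0.78 at 48 h. Its spread, which came mostly from Alas1, was larger than the changes of -0.24 and -0.27 (exact permutation p = 0.83 and 0.74).

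Between the tissues the balance differed at every time, with all marrow arrays above all livers. Marrow lay 2.63 higher toward Alas2 at 0 h, 2.41 higher at 24 h and 3.29 higher at 48 h (exact two-sided permutation p = 0.0286 each, the smallest possible, and 0.0286 adjusted over the 3). This permutation takes the 8 arrays of a time as independent, while the study gives 4 mice at each time, so that liver and marrow may share animals. Paired by replicate number, the differences were the same and the exact p was 0.125 at each time, the smallest that 4 pairs allow, so that this design cannot pass the threshold. Without marrow 24 h replicate 2 the difference at 24 h was 2.37. On the marrow arrays high Alas2 went with low Alas1, with r = -0.70 over 12 arrays, and in liver r was -0.35. Both are descriptions.

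**Figure D5:**
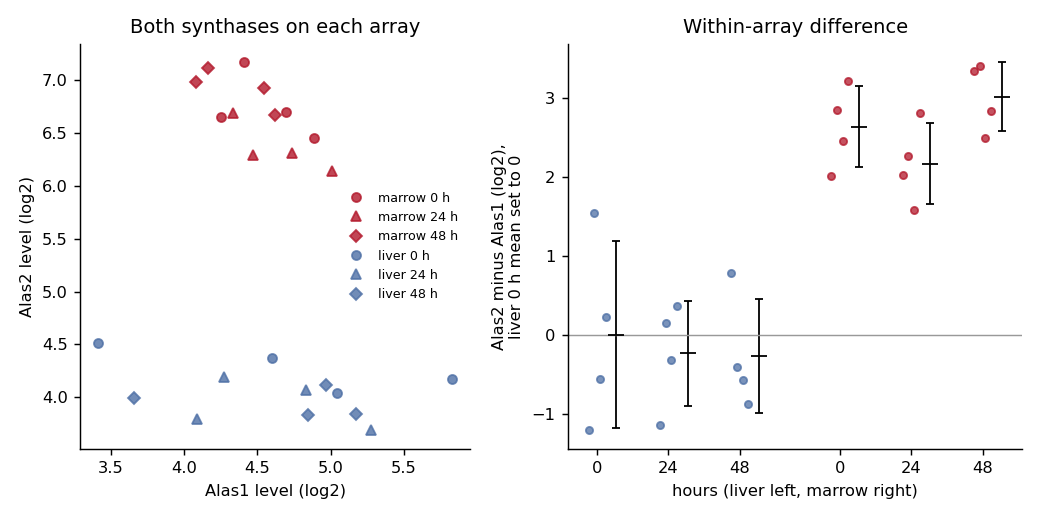
Left, Alas2 level against Alas1 level (log2) on each of the 24 arrays, by tissue and time; right, Alas2 minus Alas1 on each array relative to the liver mean at 0 h, with mean ± SD of 4 arrays. Marrow arrays lie between 1.58 and 3.40 and liver arrays between -1.21 and 1.55, without overlap.

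At 0 h, 7 of the 9 members were higher in marrow than in liver, where 80.3% of all 22768 genes were called in either direction, 39.5% as higher in marrow and 40.8% as lower; an unadjusted p under 0.05 was held by 7 members and 81.2% of genes. The differences were 2.47 for Alas2 (SE 0.15, 5.55-fold, adjusted p = 5.36e-12 by limma), 2.14 for Ppox, 1.53 for Uros, 1.34 for Fech, 1.17 for Urod, 0.75 for Cpox and 0.51 for Alad (SE 0.09, adjusted p = 4.18e-05). All 7 had groups that did not overlap, where 75.3% of genes had such groups. Alas1 differed by -0.16 (SE 0.39, adjusted p = 0.712) and Tmem14c by 0.07 (SE 0.10, adjusted p = 0.525). Tmem14c depended on the scaling between tissues: with quantile scaling it was higher in marrow by 0.62 (adjusted p = 1.84e-06), and Alas1 turned to 0.37 (adjusted p = 0.36), while the median of all genes moved by 0.10. With replicate numbers within a time as a random block, in case the tissues share mice, the same count of 7 passed.

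The response in marrow was larger than that in liver at 48 h for Alad, by 0.66 (SE 0.13, adjusted p = 0.0322 by limma), where 0.387% of genes passed (0.356% higher and 0.0307% lower). At an unadjusted p under 0.05 stood 7 members and 11% of genes. Cpox differed by 0.81 (SE 0.18, adjusted p = 0.0505) and Tmem14c by 0.60 (SE 0.14, adjusted p = 0.0619), both just short of the threshold. The other members ranged from -0.15 for Alas1 to 0.57 for Uros. No member passed at 24 h, where 0.347% of genes did (0.215% higher and 0.132% lower). At an unadjusted p under 0.05 stood 3 members and 11.4% of genes, and the largest difference was 0.57 for Cpox (adjusted p = 0.178), or 0.58 (adjusted p = 0.212) without marrow 24 h replicate 2. With the replicate block 3 members passed at 48 h, Alad, Cpox and Tmem14c. The count at 48 h was 0 in 17 of 36 alternatives and up to 3 (Alad, Cpox and Tmem14c) in others. It was 0 without liver 0 h replicate 2, 3 or 4, liver 48 h replicate 2, 3 or 4, marrow 0 h replicate 1, 2 or 3, or marrow 48 h replicate 1 or 2; it was 2 without liver 24 h replicate 2 or 4 or marrow 24 h replicate 3, and 3 without marrow 0 h replicate 4.

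Genes that supply the pathway or regulate it were read from a list of 24, of which 23 were tested in marrow. At 48 h 1 of 23 passed, Abcb6 (a porphyrin transporter), which rose by 0.53 (SE 0.11, adjusted p = 0.0431 by limma), where 1.06% of all genes did. At an unadjusted p under 0.05, 13 had a positive change, where 15.8% of all genes reached that p in either direction. The median change was 0.29 against 0.00 for all genes. Abcb6 passed in 5 of 12 fits with 1 array left out (adjusted p 0.0288 to 0.157); it did not without marrow 0 h replicate 1, 2 or 3, 24 h replicate 1, or 48 h replicate 1, 2 or 4. Slc25a38, the mitochondrial glycine carrier, differed by 0.45 (adjusted p = 0.0699), Gata1 by 0.53 (adjusted p = 0.098), Klf1 by 0.49 (adjusted p = 0.113) and Nr1d1 by 0.71 (adjusted p = 0.133). Abcb10, a mitochondrial transporter of erythroid cells, differed by 0.33 (adjusted p = 0.273) and Clpx, a mitochondrial protease partner that acts on the synthases, by 0.18 (adjusted p = 0.647). At 24 h none of the 23 passed, and in liver none passed at either time.

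Of 13 genes of heme use and breakdown, 1 passed in marrow at 24 h (Hmox1, where 1% of all genes passed) and 1 at 48 h (Abcg2, where 1.06% did). Hmox1, the inducible heme oxygenase that breaks heme down, fell at 24 h from 4.58 ± 0.28 to 3.27 ± 0.31 (SD, n = 4), a change of -1.32 (SE 0.18, adjusted p = 0.00702 by limma). At 48 h it read 3.85 ± 0.24, with a change of -0.73 (adjusted p = 0.088). Without marrow 24 h replicate 2 the 24 h change of Hmox1 was -1.22 (adjusted p = 0.0208), and it passed in all 12 fits with 1 array left out. Macrophages, which also express Hmox1, were followed by 5 markers whose summed level was 4.28 to 4.60 at 0 h, 3.81 to 4.11 at 24 h and 3.77 to 4.15 at 48 h in marrow, both later times wholly below 0 h. Their part in the Hmox1 change was not tested. Abcg2, an exporter of porphyrins, rose at 48 h by 0.70 (SE 0.15, adjusted p = 0.0487) and differed by 0.64 at 24 h (adjusted p = 0.0729). In liver the changes of Abcg2 were -0.56 and -0.45 (adjusted p = 0.348 and 0.722), and its marrow response exceeded that of liver by 1.20 (24 h, adjusted p = 0.0369) and 1.15 (48 h, adjusted p = 0.0438). These calls of Abcg2 lay close to the threshold. The 48 h change in marrow passed in 2 of 12 fits with 1 array left out, those without 0 h replicate 4 or 24 h replicate 3 (adjusted p 0.0353 to 0.176 over the 12), and it was 0.70 with an adjusted p of 0.0532 without marrow 24 h replicate 2. The responses passed in 11 and 9 of 24 such fits, with differences of 1.06 to 1.33 and 1.05 to 1.24, and the 24 h response had an adjusted p of 0.0638 without marrow 24 h replicate 2.

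Markers of cell types moved beside these results. In marrow at 48 h, 13 of 13 erythroid markers had a positive change, with a median of 0.52, close to that of the members, and 2 of 13 passed: Tfrc, the transferrin receptor, by 1.02 (adjusted p = 0.00376 by limma) and Rhag by 0.74 (adjusted p = 0.0428), where 1.06% of all genes passed. Tfrc passed in all 12 fits with 1 array left out and Rhag in 5, not without marrow 0 h replicate 1, 2 or 3, 24 h replicate 1, or 48 h replicate 1, 2 or 4. The globin genes of the list read 0.03 (Hba-a1), 0.13 (Hbb-b1) and 0.01 (Hbb-bt) at 48 h. At 24 h, 10 of 13 erythroid markers had a positive change, with a median of 0.17. Tfrc was the 1 marker of the 13 that passed at that time, by 0.79, where 1% of all genes passed. It passed at 24 h in 9 of 12 fits with 1 array left out, not without 24 h replicate 1 or 0 h replicate 2 or 3. Without marrow 24 h replicate 2 the Tfrc change was 0.78 (adjusted p = 0.0477 by limma). The summed erythroid level was 10.65 to 11.01 at 0 h, 10.7 to 10.9 at 24 h and 10.8 to 11.2 at 48 h. This sum of intensities gives the brightest markers the most weight. The median level of the 13 markers was 3.12 to 3.71 at 0 h, 3.77 to 4.26 at 24 h and 4.05 to 4.53 at 48 h. By that measure both later times lay wholly above 0 h. The summed level of the 5 B cell markers was 5.05 to 5.81 at 0 h, 4.53 to 5.11 at 24 h and 4.72 to 5.54 at 48 h. The macrophage sums given above did not overlap with 0 h at either later time, with 3 to 5 of the 5 markers above background on a marrow array. Of the 4 macrophage markers tested none passed. At 24 h 1 of the 4 had a positive change, by 0.30, with a median of -0.29, and at 48 h all were negative. Cd5l was the lowest, with -0.62 at 24 h (adjusted p = 0.09) and -0.70 at 48 h (adjusted p = 0.0537 by limma). Without marrow 24 h replicate 2 its adjusted p at 48 h was 0.0485. In liver the summed erythroid level was 7.59 to 7.90, 8.14 to 8.29 and 8.15 to 8.85, while Alas2 was lower. Of the 7 erythroid markers tested there, 6 had a positive change at 48 h and none passed. These changes ran from -0.20 to 1.83 with a median of 0.87, the globin genes Hbb-bt (1.12) and Hba-a1 (0.87) among them. Between 6 and 9 of the 13 markers were above background in a liver. The part of cell composition in the member changes was not tested.

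The genes whose marrow pattern was most like that of Alas2 over 12 arrays, by Pearson's r, were Scd4 and Ube2l6 (0.98 each), Tmem120b and Mkrn1 (0.97 each), and Asb1, Tent5c, Slc25a51 and Slc25a39 (0.96 each), the last a mitochondrial carrier. Fech stood at rank 21 of 21031 genes, and 95 genes had an r above 0.9. For Alas1 in liver the most alike were Pira11, Mefv and Pira2 (0.94 each), Zfat and Ly6g6e (0.93 each), Lilra6 (0.91), Cd86 (0.90) and Egfros (0.89), and 8 of 19487 genes had an r above 0.9. Some of the genes most like Alas1 were dim in liver: Ly6g6e read -4.69 to -2.67, Zfat -2.80 to -2.33 and Mefv -2.72 to -1.50. The dimmest probe well above background on a liver array read -5.37 to -3.93. The arrays share slides and scaling, and these orders are descriptions.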

How the data were processed

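RNA was measured on 24 single-colour Agilent arrays. Per the file headers, the deposited processed intensity had its background subtracted and a spatial trend removed by Feature Extraction (10.10.1.1, per the submitters' processing notes), with probe positions on mm9. The authors also deposited a table of log2 values, whose column medians were 7.74 on every liver array and 8.31 on every marrow array; they rank probes as the processed intensity does (Spearman 0.997 to 0.999), and how they were normalised is not given in the sources used here. It was used as an alternative. Here, log2 processed intensity minus the array's 75th percentile over spots that were neither controls nor outliers was averaged over the spots of a probe. Probes were kept if well above background throughout 1 or more groups, and a gene was represented by its kept probe with the highest mean. Of the 16 member probes, 14 were kept in liver and 15 in marrow.

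Groups were compared with limma 3.58.1 (lmFit and eBayes) in R 4.3.3, with 1 fit for each tissue and 1 over both, adjusted by the Benjamini-Hochberg method over all genes at 0.05; single values were also tested by an exact two-sided permutation over arrays, whose smallest p is 0.0286. The fits were tested on simulated data. The 24 h and 48 h comparisons share the 0 h arrays. Scan and slide split the arrays alike. The labels speak of 4 mice per time; where samples were not separate animals, p-values measure only the spread between arrays.

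Named were all members, every listed supply, regulator or breakdown gene past the threshold, Slc25a38, Abcb10, Clpx, Ppargc1a, Nr1d1, Gata1 and Klf1, and the 8 named genes most like Alas2 in marrow and Alas1 in liver. Members, lists and markers were chosen with earlier results of these data known. The alternatives were other scalings, background correction, filters, probe summaries, slide and replicate blocks, variance models, fits and arrays left out. Promoter windows came from a table of RefSeq sequences (GRCm38.p6) in which 8 of the 9 members were matched. Leaving out each array for the listed genes and markers that passed was chosen after seeing the data. The number of arrays limits the precision. 1 enzyme of the pathway is not reported here.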

Additional observations from a re-analysis of the deposited data

Results flagged for a closer look

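Alad on liver 0 h replicate 1 read 4.1820, with the nearest of the other 3 arrays at 4.2930, a gap large against the range of that group. Among 54 groups examined this was the only array so far from the rest, and chance marks about 1 in 20 such groups. The response of Alad at 48 h differed between the tissues, with marrow exceeding liver by 0.6569 (log2, adjusted p = 0.0322 by limma for the difference itself).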

How the results depend on the processing

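Of 2367 recomputed member changes, 2284 kept their direction or stayed within the replicate spread on the same side of the threshold, 53 lost it, 24 gained it and 6 moved; none that passed the threshold turned its sign. In marrow at 24 h the count of members passing rose from 0 to 1 (Cpox) with all 24 arrays in 1 fit. In marrow at 48 h it rose from 2 to 5 in that fit and fell to 0 with the authors' values, normexp with quantile scaling, the mean of all kept probes, no filter, only the 2 groups compared, the replicate block, median scaling, quantile scaling and the slide block; with 1 array left out it was 0 to 3. For the response at 48 h it rose from 1 to 3 with array weights, a trended robust variance, probes above background on all arrays and the replicate block, and to 2 with the slide block. It fell to 0 with the authors' values, normexp with quantile scaling, no filter, the 75th percentile of probes above background on all arrays, median scaling and quantile scaling; with 1 array left out it was 0 to 3. The cause was not tested. The tissue difference in Alas2 minus Alas1 was 2.63, 2.41 and 3.29 with the replicate block, whose smallest possible p is 0.125, and 2.23 to 3.15 at 0 h, 2.10 to 2.61 at 24 h and 3.08 to 3.64 at 48 h with 1 array left out. The change of this balance in liver turned sign in some alternatives (-0.65 to 0.28 at 24 h). The replicate numbers were not taken as a pairing. Correlations of same-numbered arrays' deviations within a tissue were over 0.1 in 3 of 12 pairs in liver and 6 of 12 in marrow. For other numbers this held for 4 of 36 pairs in liver and 9 of 36 in marrow. Between liver and marrow of the same time the correlations averaged 0.112 for the same number and -0.037 for other numbers. They were over 0.1 in 7 of 12 and 1 of 36 pairs, a hint from the data and not the design. The authors' values, whose medians differ between the tissues and agree within them, were used for responses but not for levels between tissues at 0 h, and the scan date was not run apart from the slide. Precision is limited by 4 arrays a group; 1 Uros probe was above background on 5 of 12 livers and 1 Alad probe on 0 of 24 arrays.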
